A study of Mus musculus with 12 samples.

Results

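The Reg (regenerating family member) genes encode small secreted C-type lectins, among them antimicrobial proteins of the gut. The genes described here are Reg1, Reg2, Reg3a, Reg3b, Reg3d, Reg3g and Reg4, found by their names in both deposited expression tables, which made 7 of 54532 genes in each table. The rule that picks members uses names only, though the family was chosen with earlier results of these data known.

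The study deleted ieCtnnb1, an intestinal enhancer of Ctnnb1 (the gene of β-catenin), from the mouse germline by CRISPR/Cas9 and sequenced bulk RNA of 12 libraries. Small intestine crypt libraries came from 3 Wild type and 3 ieCtnnb1KO samples, and colon tumor libraries came from 3 APCmin/+ and 3 APCmin/+;ieCtnnb1KO samples. Mice were on the C57BL/6 background, knockout mice were homozygous, and both tumor groups were heterozygous for the Apc nonsense allele. All samples were labelled adult and untreated, and the sample titles call the APCmin/+ controls WT. A germline deletion removes the enhancer from every cell type, not from the epithelium alone. The labels do not state whether replicates were separate animals (the study counts mice), so every p measures spread between these samples. Depth lay between 14457896 and 16156712 fragments on genes per library, as recovered from the tables. Levels are in FPKM, that is fragments per kilobase of gene length, with each library scaled by a factor other than its plain fragment total. Each table was normalized by itself, so a knockout is only ever compared with the controls of its own table. The contrast between tissues compares these differences between knockout and control. Values run in the order of libraries 1, 2 and 3 of each group, controls before knockouts.

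As background, Reg3g and Reg3b are released into the gut lumen by Paneth cells and enterocytes, where Reg3g binds the peptidoglycan of Gram-positive bacteria and keeps them off the epithelium. Interleukin-22 acting through STAT3, and MyD88 signalling, are known inducers of both. Reg4 is a product of goblet-like secretory cells and enteroendocrine cells, while Reg1, Reg2, Reg3a and Reg3d are also known from the pancreas.

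Ctnnb1, the target of the deleted enhancer, checked the labels. Its level in crypts was 121, 134 and 123 FPKM in wild type and 102, 104 and 105 FPKM in knockouts. In tumors the same gene stood at 299, 363 and 358 FPKM in APCmin/+ and at 279, 248 and 250 FPKM in knockouts. All 3 knockout libraries lay below all 3 controls in both tables. The log2 difference was -0.28 in crypts (limma adjusted p = 0.849) and -0.39 in tumors (limma adjusted p = 0.303), so neither passed the adjusted threshold of 0.05. Tissue markers followed the labels: Hoxb13, a gene of the hindgut, was at 0 in all 6 crypt libraries and between 70.1 and 128 FPKM in all 6 tumors. Enterocyte genes of the small intestine such as Apoa4 and Fabp1 were at 0 in 5 of 6 tumor libraries.

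Some libraries stood apart from their group. Gkn2, a secreted protein of the stomach lining, was at 12.3 and 15.1 FPKM in wild-type crypt libraries 1 and 2 and at 0 in the other 4 crypt libraries. Gkn1, its relative, showed the same split with 7.08 and 8.27 FPKM. Fabp6, the ileal bile acid binding protein, stood at 135, 991 and 2619 FPKM in wild-type crypts and at 678, 617 and 661 FPKM in knockout crypts, so the wild-type libraries differed among themselves more than the knockouts did. Among tumors, Xist, the RNA of the inactive X chromosome, was at 114 FPKM in APCmin/+ library 3 and 61.4 FPKM in knockout library 3 and at most 0.0623 FPKM in the other 4. Ddx3y, a gene of the Y chromosome, was at 0 and 0.0247 FPKM in those libraries and between 8.65 and 12.9 FPKM in the other 4. This split by sex-linked genes is not in the labels. Hoxd13, a gene of the most distal hindgut, was at 65.7, 63 and 42.5 FPKM in APCmin/+ libraries 2 and 3 and knockout library 3, and at 0.0746, 2.85 and 0.176 FPKM in the other 3 tumor libraries. Several results below are also given without wild-type crypt libraries 1 and 2, which leaves 1 wild-type library, or without both tumor libraries numbered 3.

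Of the 7 members, 6 share a stretch of chromosome 6, from base 78370657 to 78468872 of GRCm38, a span of 98.2 kb that holds no other annotated gene. They run in the order Reg3b, Reg3d, Reg3a, Reg2, Reg1 and Reg3g, with Reg3d and Reg3g on the minus strand, and gaps of 1843 to 37601 bases. Within 500 kb on either side lay 8 other genes, none above 0.105 FPKM in a crypt library or 0.154 FPKM in a tumor library. Reg4 lies apart on chromosome 3, at 98222156 to 98236748. Over the 21 pairs of members, coding sequences were between 62.8% and 82.5% identical, with Reg1 and Reg2 the closest pair. Reg3b and Reg3g shared 76.4% of 525 aligned bases, and their transcripts held an exact common run of 35 bases, the longest of any pair and shorter than a read of this study. The coding sequences gave proteins of 157 (Reg4) to 175 residues (Reg3a, Reg3b and Reg3d).

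The promoters of 3 members are printed because Reg3b and Reg3g varied together between libraries while Reg1 lay the other way in knockout crypts. All 7 members matched the RefSeq promoter set (build GRCm38.p6), which spans 250 bases before to 50 after each RefSeq start, and that start can differ from the gene start in the expression tables. Capitals mark TTCNNNGAA, a STAT factor motif, CTTTGAT, a motif of the TCF/LEF partners of β-catenin, and TATAAA, the TATA motif. The search covered both strands for the STAT and TCF/LEF motifs and the gene's own strand for TATAAA. A variant of the TCF/LEF motif, CTTTGAA, was searched as well. Reg3b lies on the plus strand at chr6:78370635-78370934, Reg3g on the minus strand at chr6:78468825-78469124 and Reg1 on the plus strand at chr6:78425733-78426032, each written 5′ to 3′ along its own strand.
Reg3b: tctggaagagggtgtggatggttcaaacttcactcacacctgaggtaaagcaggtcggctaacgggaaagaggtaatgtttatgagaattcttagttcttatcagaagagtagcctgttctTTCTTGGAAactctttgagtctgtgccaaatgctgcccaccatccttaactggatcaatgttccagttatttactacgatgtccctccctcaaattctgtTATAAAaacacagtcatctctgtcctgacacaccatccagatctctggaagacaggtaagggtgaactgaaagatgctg
Reg3g: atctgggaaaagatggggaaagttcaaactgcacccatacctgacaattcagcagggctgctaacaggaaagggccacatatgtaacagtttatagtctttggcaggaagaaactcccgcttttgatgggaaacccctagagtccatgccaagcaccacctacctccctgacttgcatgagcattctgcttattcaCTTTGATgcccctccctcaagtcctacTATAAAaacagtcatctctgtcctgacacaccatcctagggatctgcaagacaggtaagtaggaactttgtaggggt
Reg1: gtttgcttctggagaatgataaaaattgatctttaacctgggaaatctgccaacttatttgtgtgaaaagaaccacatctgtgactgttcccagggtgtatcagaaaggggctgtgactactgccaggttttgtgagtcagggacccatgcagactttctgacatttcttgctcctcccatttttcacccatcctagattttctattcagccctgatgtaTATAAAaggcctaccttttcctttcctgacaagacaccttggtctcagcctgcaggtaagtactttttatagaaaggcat

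TATAAA occurred in Reg3g, Reg3b, Reg1 and Reg2, which is 4 of 7 members beside 8.32% of 32851 promoters with it anywhere in a window of the same length. In these 4 it began 27 to 30 bases before the start, and the share of all promoters with it at that place was not counted. TTCNNNGAA occurred in Reg3b, as TTCTTGGAA at -129 to -121, and in Reg3d, beside 8.3% of all promoters. CTTTGAT occurred in Reg3g at -54 to -48, in Reg2 and in Reg3a, beside 3.73% of all promoters, and CTTTGAA occurred in 0 of 7, beside 5.14%. The members' windows were 38.3% to 47.3% GC beside a median of 52.7% over all promoters, and these motifs are rich in A and T, so the shares over all promoters are not those of windows with like GC. No marked motif overlapped another in these windows. The Reg3b and Reg3g promoters were 71.4% identical over 294 aligned bases, with an exact common run of 29 bases, the longest shared by any of the 21 promoter pairs. These matches describe letters in a window and were not tied to binding of any factor.

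The question in crypts was how far loss of the enhancer went with the levels of these defence genes in the normal epithelium. Reg3b and Reg3g were among the most abundant transcripts of every crypt library, and Reg3g was lower in all 3 knockout libraries than in all 3 wild-type libraries. Reg1 lay the other way, with a mean of 99.1 ± 31.9 FPKM (SD, n = 3) in wild type and 255 ± 95.9 FPKM in knockouts. Neither difference passed the test over all genes.

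Reg3b, a lectin that acts on Gram-negative bacteria at the mucosa, was the highest member in 6 of 6 crypt libraries. Its level was 1902, 3570 and 2855 FPKM in wild type and 1690, 2011 and 2484 FPKM in knockouts. By its mean over the 6 libraries it ranked 20 of 54532 genes, and it took 0.313 ± 0.0781% of fragments in wild type and 0.238 ± 0.036% in knockouts (SD, n = 3). Wild-type library 2 was the highest and knockout library 1 the lowest, and the groups overlapped. The log2 difference of knockout minus wild type was -0.40 (SE 0.31, 95% interval -1.14 to 0.34, limma adjusted p = 0.901), and it came to -0.07 under quantile normalization.

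Reg3g, its neighbour at the other end of the cluster, followed in rank within each crypt library. Its level was 820, 1221 and 880 FPKM in wild type and 530, 737 and 768 FPKM in knockouts. The groups did not overlap, though the highest knockout library lay only just under the lowest wild-type library. Knockout mean levels were 678 ± 129 FPKM beside 974 ± 216 FPKM in wild type (SD, n = 3), a fold of 0.698 on the fitted scale. The log2 difference was -0.52 (SE 0.24, 95% interval -1.09 to 0.06, limma adjusted p = 0.857), and an exact two-sided permutation test gave p = 0.1, the smallest that 3 against 3 can give. In bulk tissue, fewer cells that make Reg3g and less Reg3g RNA per cell cannot be told apart.

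Reg1, known first as the stone protein of pancreatic juice, lay out of step with them. Its level was 71.2, 134 and 92.2 FPKM in wild type and 286, 147 and 331 FPKM in knockouts, on 996 to 1851 and 2227 to 4210 fragments. The groups did not overlap: knockout libraries 1 and 3 stood far above the wild-type range and library 2 just above it. The fitted fold was 2.5 (95% interval 1.4 to 4.49), a log2 difference of 1.32 (SE 0.36). limma gave an unadjusted p of 0.00744 and an adjusted p of 0.757, and the exact permutation p was 0.1. Without wild-type libraries 1 and 2, which held the stomach genes, the log2 difference was 1.38 (limma adjusted p = 0.316, within a range of 0.316 to 1 over all alternatives), with the spread of the lone wild-type library taken from the knockouts.

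**Figure D1:**
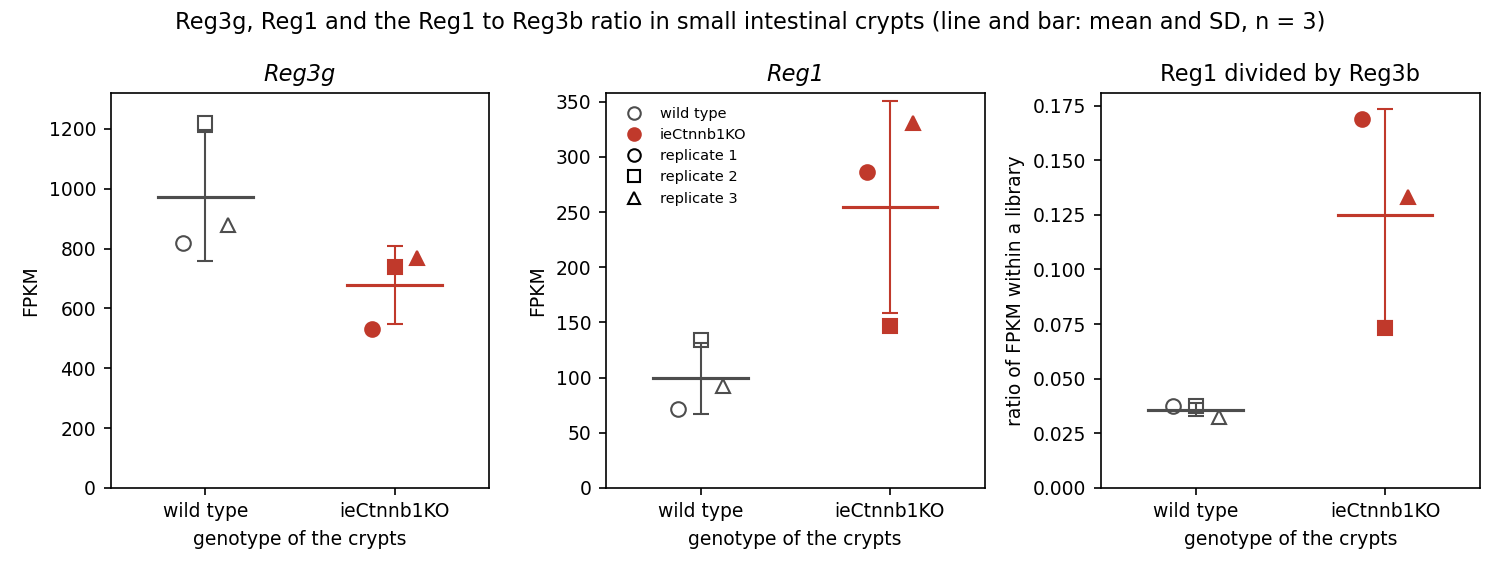
Levels of Reg3g and Reg1 in FPKM, and the ratio of Reg1 to Reg3b, in each crypt library by genotype; symbols are libraries, lines the mean and bars the SD (n = 3). Reg3g lies between 530 and 768 FPKM in knockouts and 820 and 1221 FPKM in wild type, Reg1 between 147 and 331 FPKM in knockouts and 71.2 and 134 FPKM in wild type.

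A ratio within a library removes its overall scale. Reg1 divided by Reg3b was 0.0374, 0.0375 and 0.0323 in wild-type crypts and 0.169, 0.0731 and 0.133 in knockout crypts. The wild-type ratios were nearly constant, and each knockout ratio exceeded all of them (exact permutation p = 0.1). Reg1 alone already separated the groups and Reg3b had a lower knockout mean, so this separation is not independent of that of Reg1. Reg1 divided by Reg3g was 0.0867 to 0.11 in wild type and 0.2 to 0.54 in knockouts. That ratio had to separate the groups and adds nothing further, since Reg1 was higher and Reg3g lower in every knockout library. Reg3b divided by Reg3g, in contrast, was between 2.32 and 3.24 in wild type and between 2.73 and 3.24 in knockouts, with overlap (exact permutation p = 0.7).

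The other members overlapped between the crypt groups. Reg4, a lectin of secretory cells, was at 156, 174 and 260 FPKM in wild type and 127, 109 and 290 FPKM in knockouts. Library 3 was the highest in each group, and the log2 difference of -0.27 (limma adjusted p = 0.942) came to 0.00 without knockout library 2. Reg3a, a further Reg3 lectin of the cluster, was at 34.1, 37.5 and 85.4 FPKM in wild type and 86.6, 46.5 and 42.9 FPKM in knockouts. Wild-type library 3 and knockout library 1 were high and the other 4 low, so its log2 difference of 0.22 (limma adjusted p = 0.96) turned to -0.02 without wild-type library 1 and to -0.10 without knockout library 1, and to -0.61 without wild-type libraries 1 and 2. Reg3d, between Reg3b and Reg3a on the chromosome, reached only 0.534 to 1.71 FPKM on 7 to 21 fragments, with a log2 difference of -0.36 (limma adjusted p = 0.905). Reg2, described in regenerating pancreatic islets, had 0 to 3 fragments per crypt library, at or under the floor of 3 fragments, and failed the level filter of a mean of 0.5 FPKM. Such floors cover counting error only.

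Ordered by level per length, the wild-type crypt libraries all read Reg3b, Reg3g, Reg4, Reg1, Reg3a, Reg3d and Reg2. All 3 knockout libraries had Reg1 above Reg4, the only exchange in the order. In wild type the ranges of Reg4 and Reg1 were separate and those of Reg1 and Reg3a overlapped, while in knockouts the ranges of Reg1 and Reg4 overlapped. The level of Reg3g depends on the length used: the tables divide by 2114 bases, which include a retained-intron transcript of 2089 bases, whereas its coding transcript is 771 bases long. With coding transcript lengths, a description chosen after seeing the data, the order stayed the same in 6 of 6 crypt libraries, with Reg3b above Reg3g at ratios of 1.23 to 1.72.

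**Figure D2:**
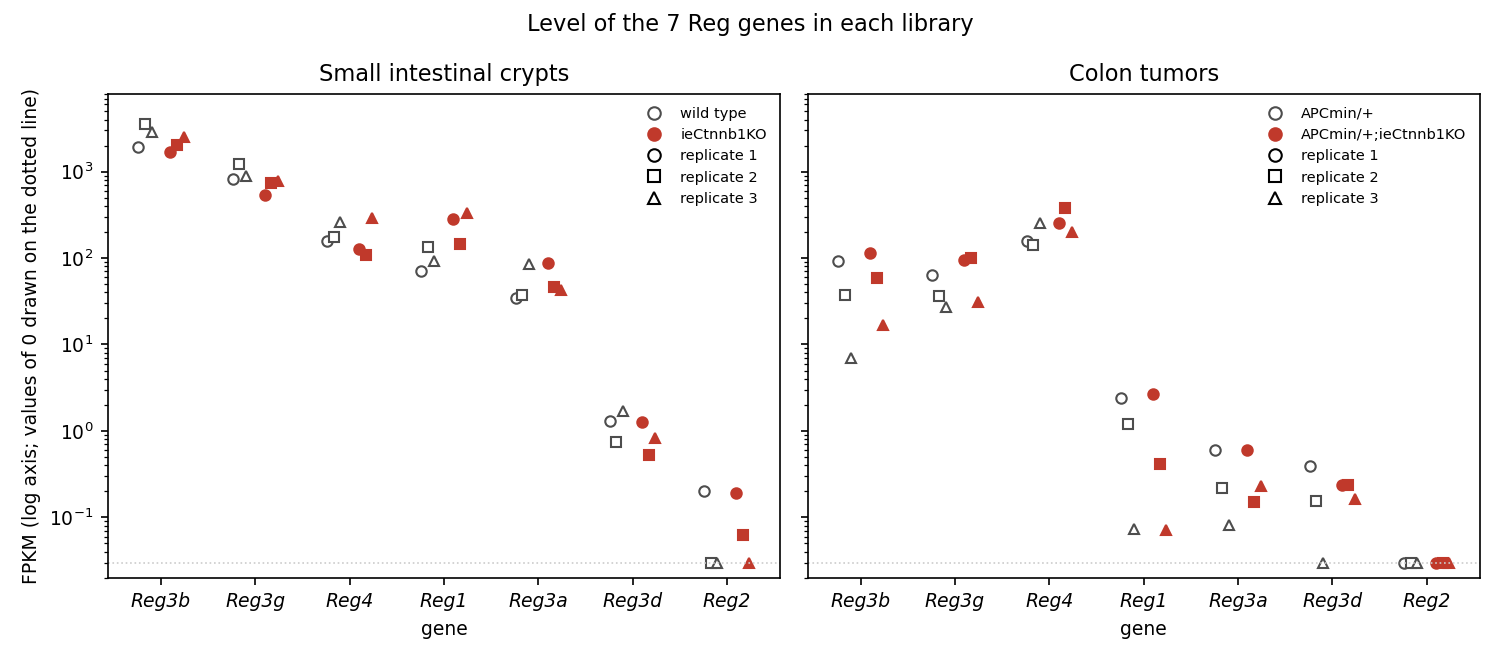
Level of each Reg gene in FPKM (log axis) in every library of the crypt table and of the tumor table; open symbols are controls, filled symbols knockouts, and shapes give the replicate number. With the gene lengths used for FPKM, Reg3b and Reg3g lead in crypts and Reg4 leads in tumors, and the tables were normalized separately.

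Counted over the family, 6 of 7 members passed the level filter in crypts. limma called 0 of 6 past an adjusted p of 0.05, beside 0% of 14176 tested genes, and 1 of 6 (Reg1) at an unadjusted p under 0.05, beside 5.85% (829 genes). voom on recovered fragments also called 0 genes, with 805 at an unadjusted p under 0.05, and 2 of 6 members were among these, Reg1 and Reg3g (unadjusted p 0.0413). The same 2 members reached it by limma when rescaled without the 50 highest genes (Reg3g at an unadjusted p of 0.0469), beside 788 genes. With single libraries left out Reg1 always reached it, beside 462 to 1344 genes. Reg4 joined Reg1 once, without knockout library 3 (limma unadjusted p 0.0355), beside 756 genes. Groups did not overlap for 2 of 6 members, beside 11.9% of tested genes: 1 with knockouts higher (6.79% of all) and 1 lower (5.15%). A count of 2 among 6 genes is too small to set the family apart from that background. Means were higher in knockouts for 2 members and lower for 4, and the median log2 difference was -0.31 beside 0.01 over all tested genes (1 higher and 5 lower, with a median of -0.55, without wild-type libraries 1 and 2).

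Genes of the pathway that induces Reg3 lectins were read from lists. All 7 cytokines and other inducers stayed under the level filter in crypts, and Il22 itself was at 0, 0 and 0.0575 FPKM in wild type and 0.111, 0 and 0 FPKM in knockouts. Of 9 receptors of those cytokines, 6 were tested, 2 with higher and 4 with lower knockout means, and limma called 0 (lowest adjusted p 0.852, 0 at an unadjusted p under 0.05). Il22ra1, the epithelial interleukin-22 receptor, was at 11.8, 13.3 and 19.7 FPKM in wild type and 8.61, 9.6 and 12.8 FPKM in knockouts, with overlap. Of 7 signal transducers, 2 had knockout libraries all below wild type, beside 5.15% of tested genes. limma called 0 of the 7, with 1 at an unadjusted p under 0.05, beside 5.85%. Socs3, a STAT3 target that damps the same signal, was at 18.7, 20.5 and 37.2 FPKM in wild type and 11.9, 14.7 and 14.7 FPKM in knockouts. Its log2 difference was -0.80 (limma unadjusted p 0.0175, adjusted p = 0.799). Stat3, the transcription factor itself, was at 15.4, 14 and 14.8 FPKM in wild type and 11.7, 12.4 and 13.5 FPKM in knockouts, a log2 difference of -0.23 (limma adjusted p = 0.86). Both genes lay below the wild-type range in all 3 knockout libraries. The part of this pathway in the level of Reg3g was not tested.

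Of 15 other inducible defence genes of the epithelium, 8 were tested in crypts, 3 higher and 5 lower by mean (4 and 4 without wild-type libraries 1 and 2), with a median log2 difference of -0.33 and 0 called by limma (lowest adjusted p 0.86, 0 at an unadjusted p under 0.05). Fut2, which fucosylates the surface, was at 1.99, 2.32 and 1.29 FPKM in wild type and 0.181, 0.539 and 1.91 FPKM in knockouts. Knockout library 3 lay inside the wild-type range and the other 2 below it. Extl3, a reported receptor of Reg proteins, was at 5.36, 4.45 and 4.61 FPKM in wild type and 3.65, 4.15 and 4.54 FPKM in knockouts, with overlap.

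Markers of cell types that make Reg proteins were set beside them. By mean log2 level, all 8 Paneth cell genes were lower in knockouts (7 of 8 under quantile normalization). The log2 difference of Ang4 was only -0.06. The median was -0.54 (-0.98 without wild-type libraries 1 and 2), and 3 genes did not overlap, beside 5.15% of tested genes. limma called 0 of the 8 genes, with 1 at an unadjusted p under 0.05, beside 5.85%. Their summed level was 20002, 29003 and 54258 FPKM in wild type and 21766, 18920 and 21876 FPKM in knockouts, led by the defensin Defa24. Wild-type library 3 was far above the rest through Defa24, at 32836 FPKM. Mmp7, the protease that activates defensins, was at 329, 426 and 484 FPKM in wild type and 228, 239 and 275 FPKM in knockouts (limma unadjusted p 0.00671, adjusted p = 0.757). Goblet cell genes had lower knockout means in 8 of 9, Muc2 being the exception (9 of 9 when rescaled without the 50 highest genes, 7 of 9 without wild-type libraries 1 and 2), all overlapping, 0 called (0 at an unadjusted p under 0.05) and a summed level of 6069, 9314 and 9777 FPKM beside 5504, 6592 and 8368 FPKM. The part of either cell type in the level of Reg3g was not tested.

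Enterocyte genes went with Reg1 in direction: by mean log2 level 9 of 9 were higher in knockouts, with a median log2 difference of 0.45. All overlapped, and limma called 0 (lowest adjusted p 0.857, 0 at an unadjusted p under 0.05). That direction rested on wild-type libraries 1 and 2, since without them 2 of 9 were higher and the median was -0.14. Summed, the list stood at 4638, 6856 and 11497 FPKM in wild type and 9268, 6952 and 10895 FPKM in knockouts, led by the fatty acid binding protein Fabp2. Wild-type library 3 held the highest enterocyte sum of all with Reg1 at 92.2 FPKM, inside the wild-type range. Knockout library 3, with a sum of 10895 FPKM, held the most Reg1, at 331 FPKM. The part of enterocytes in the level of Reg1 was not tested. Car4, a carbonic anhydrase from the colon list, lay with Reg1 at 63.6, 45.3 and 39 FPKM in wild type and 82, 85 and 110 FPKM in knockouts (limma unadjusted p 0.00356, adjusted p = 0.728). The other 4 genes of that list were under the filter in crypts, Hoxb13 and Hoxd13 at 0 in every library.

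Because Reg1 is also a pancreatic product, acinar genes were read beside it. Of 9, 8 were tested, 5 higher and 3 lower by mean log2 level, with a median log2 difference of 0.07. Without wild-type libraries 1 and 2, 7 were higher and 1 lower, with a median of 1.26. With all libraries kept, limma called 0 of these genes (lowest adjusted p 0.896, 0 at an unadjusted p under 0.05). Their sum was 179, 287 and 421 FPKM in wild type and 193, 161 and 262 FPKM in knockouts, nearly all of it Clps, the colipase gene. In knockout library 1, where Reg1 was at 286 FPKM, the trypsinogen gene Prss2 was at 0 and the elastase gene Cela2a at 0.0713 FPKM. Wild-type library 2 held the most Prss2, at 3.13 FPKM, with Reg1 at 134 FPKM. Knockout library 3, the highest for Reg1 at 331 FPKM, went the other way and held the most of the protease gene Ctrb1, at 7.38 FPKM, and of Cpa1, at 1.3 FPKM. The part of pancreatic RNA in the level of Reg1 was not tested. The stomach list, split between wild-type libraries, had a summed level of 38, 37.5 and 2.29 FPKM in wild type and 2.46, 2.73 and 1.95 FPKM in knockouts. Of its genes 3 were tested and 3 were lower by mean log2 level. Their median log2 difference was -2.68 (-0.00 without wild-type libraries 1 and 2). All overlapped, and limma called 0, with 3 at an unadjusted p under 0.05, beside 5.85% of tested genes.

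Remaining lists in crypts gave 0 calls by limma, and voom gave 0 in any list. Under the 3 other scalings that changed any value, the number of genes with higher means moved by at most 1 in each crypt list. Among 9 enteroendocrine genes, 8 had lower knockout means and 3 did not overlap, beside 5.15% of tested genes (the same number at an unadjusted p under 0.05, beside 5.85%), among them the hormone gene Sst at 74, 84.6 and 79.5 FPKM in wild type and 56.1, 60.7 and 65.8 FPKM in knockouts. Tuft cell genes had 1 higher and 2 lower of 3 tested, immune cell genes 2 higher and 4 lower of 6 (2 without overlap, 1 at an unadjusted p under 0.05), and stroma genes 0 higher and 2 lower of 2 (1 without overlap, also at an unadjusted p under 0.05). Jchain, the joining chain of secreted immunoglobulin A, was at 10.4, 14.4 and 11.4 FPKM in wild type and 8.1, 9.01 and 8.71 FPKM in knockouts. Genes of the proximal small intestine were higher by mean in 4 of 6 (3 of 6 without wild-type libraries 1 and 2), 1 of them without overlap (Gata4, higher, beside 6.79% of tested genes), and those of the distal small intestine lower in 3 of 3 (2 of 3 under quantile normalization), with a median log2 difference of -0.62 (-1.70 without wild-type libraries 1 and 2). Pan-epithelial genes had 2 higher and 2 lower of 4, and Epcam was at 670, 743 and 797 FPKM in wild type and 659, 791 and 716 FPKM in knockouts.

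In tumors the question was the same for APCmin/+ tissue with and without the enhancer. Reg4 was the most abundant member in 6 of 6 libraries by the tables' lengths, and the knockout means of Reg4, Reg3g and Reg3b were above the control means. Every member overlapped between the groups, and Reg3b differed up to 13.3-fold between libraries of a group. Reg3a, Reg3d and Reg2 were close to the limit of detection, as was Reg1 in library 3 of both groups.

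Reg4 stood at 156, 143 and 253 FPKM in APCmin/+ tumors and at 253, 384 and 199 FPKM in knockout tumors. APCmin/+ library 3 and knockout library 1 had the same rounded level, knockout library 2 was the highest, and the groups overlapped. Mean levels were 184 ± 59.9 and 279 ± 95.2 FPKM (SD, n = 3), a fitted fold of 1.5 (95% interval 0.909 to 2.49) and a log2 difference of 0.59 (SE 0.30). limma gave an adjusted p of 0.41, and the exact permutation p was 0.2. With both libraries numbered 3 left out, those with Xist, the log2 difference was 1.06 (limma adjusted p = 0.681, within a range of 0.344 to 0.689 over all alternatives).

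Goblet cell genes had higher knockout means like Reg4, and separated the groups where Reg4 did not. All 9 had knockout libraries above every control, beside 11.4% of tested genes, with a median log2 difference of 1.03, and 0 passed limma's adjusted threshold (lowest adjusted p 0.269), while 9 had an unadjusted p under 0.05, beside 14.5%. Their sum was 1422, 1435 and 1471 FPKM in APCmin/+ tumors and 2715, 3260 and 2870 FPKM in knockout tumors, led by Spink4. Muc2, the main gel-forming mucin, was at 151, 123 and 114 FPKM in controls and 259, 419 and 295 FPKM in knockouts. Reg4 as a percentage of that sum was 11, 9.99 and 17.2 in controls and 9.32, 11.8 and 6.93 in knockouts, with overlap (exact permutation p = 0.3). The part of goblet cells in the level of Reg4 was not tested.

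**Figure D3:**
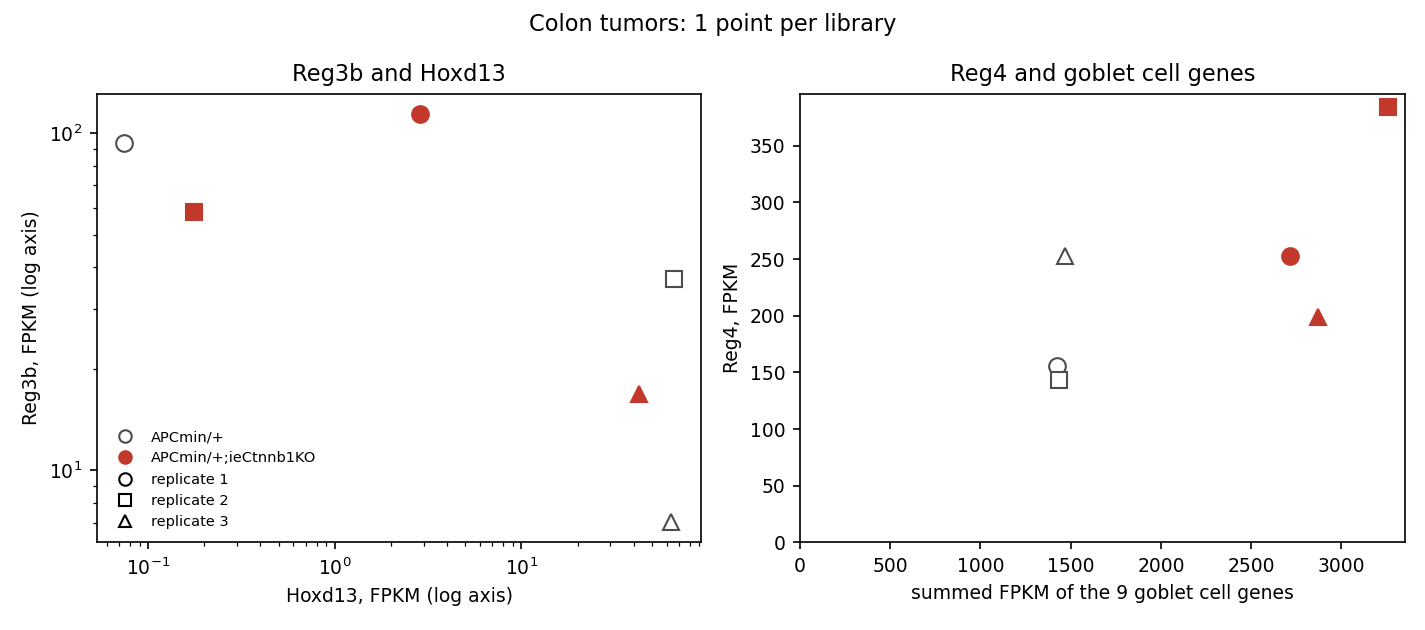
Tumor libraries as points: Reg3b against Hoxd13 in FPKM on log axes, and Reg4 in FPKM against the summed FPKM of the 9 goblet cell genes; open symbols are APCmin/+ and filled symbols knockout tumors. Goblet sums run from 1422 to 1471 FPKM in controls and from 2715 to 3260 FPKM in knockouts, while Reg4 overlaps between the groups.

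Reg3g stood at 64.4, 36.3 and 27.5 FPKM in APCmin/+ tumors and at 94.2, 98.8 and 30.7 FPKM in knockout tumors. Knockout libraries 1 and 2 exceeded every control, and knockout library 3 lay within the control range. The log2 difference was 0.71 (SE 0.51, 95% interval -0.50 to 1.93, limma adjusted p = 0.526), and it was 0.99 with both libraries numbered 3 left out (limma adjusted p = 0.681, within a range of 0.373 to 0.821 over all alternatives). Reg3b stood at 93.6, 36.9 and 7.03 FPKM in APCmin/+ tumors and at 114, 58.5 and 16.8 FPKM in knockout tumors. In each group library 1 was the highest and library 3 the lowest, a span of 13.3-fold in controls and 6.78-fold in knockouts. The log2 difference was 0.71 (SE 1.03, 95% interval -1.75 to 3.18, limma adjusted p = 0.764), and without APCmin/+ library 3 it was -0.28.

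Reg3b and Reg3g levels lay opposite to Hoxd13 in part. The 3 libraries with the most Hoxd13 held the 3 lowest Reg3b levels, 36.9, 7.03 and 16.8 FPKM, and the other 3 held 93.6, 114 and 58.5 FPKM. Reg3g split in the same way, at 36.3, 27.5 and 30.7 FPKM in the former and 64.4, 94.2 and 98.8 FPKM in the latter. Reg3g varied with Reg3b over these libraries (Pearson r = 0.87), so its split is not a separate observation. Hoxd13 was named after its values were seen, and the share of all tested genes with such a split was not counted. The libraries with the most Hoxd13 were 2 of 3 controls and 1 of 3 knockouts, so Hoxd13 levels were uneven between the groups in which Reg3b and Reg3g were compared. Hoxb13 did not split the libraries in this way, at 70.1, 99.2 and 93.2 FPKM in controls and 108, 82.7 and 128 FPKM in knockouts. Where along the colon each tumor was taken is not in the labels, and its part in Reg3b and Reg3g was not tested.

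Reg1 in tumors stood at 2.39, 1.21 and 0.074 FPKM in controls and 2.68, 0.414 and 0.0709 FPKM in knockouts, on 1 to 39 fragments per library. Its log2 difference was -0.26 (SE 0.80, 95% interval -2.16 to 1.65, limma adjusted p = 0.899), which turned to 0.26 without APCmin/+ library 1 and to 0.27 without knockout library 3. Reg3a reached 0.0811 to 0.603 FPKM and Reg3d 0 to 0.395 FPKM, both under the level filter. Reg2 was at 0 in all 6 tumor libraries, which allows a level of up to 0.191 to 0.211 FPKM by the floor of 3 fragments.

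By coding transcript length the order in tumors shifted. Reg3b exceeded Reg3g in 3 of 6 tumor libraries with the tables' lengths and in 0 of 6 with coding transcript lengths, at ratios of 0.136 to 0.773. Reg3g then also topped Reg4 in library 1 of both groups, at 176 beside 156 FPKM in the control and 258 beside 253 FPKM in the knockout. The lead of Reg4 over the Reg3 lectins in tumors thus depends on the length assigned to Reg3g, whereas the ratio of knockout to control for a single gene does not.

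Over the family, 4 of 7 members passed the filter in tumors. limma called 0 of 4, beside 0% of 16743 tested genes, and 0 of 4 reached an unadjusted p under 0.05, beside 14.5% (2421 genes). Without both libraries numbered 3, 2 of 4 reached it, Reg4 and Reg3g (limma unadjusted p 0.00938 and 0.0246), beside 1205 of 16743 genes. With single libraries left out 0 to 2 of 4 did, the same members, beside 1399 to 2755 genes. voom called 0 genes, with 2541 at an unadjusted p under 0.05. Groups were free of overlap for 0 of 4 members, beside 22.1% of tested genes. Means were higher in knockouts for 3 members and lower for 1, with a median log2 difference of 0.65 beside 0.01 over all tested genes.

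**Figure D4:**
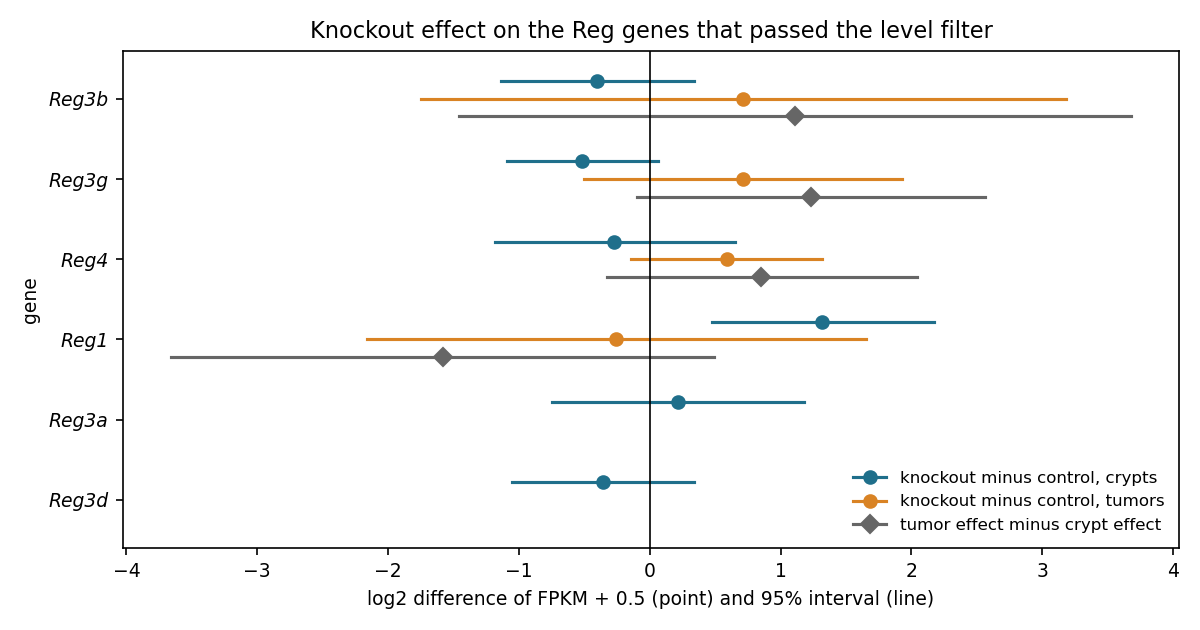
Log2 difference of knockout minus control for each tested Reg gene in crypts and in tumors, and the tumor difference minus the crypt difference, with 95% intervals as lines. Every interval includes 0 except that of Reg1 in crypts, 0.48 to 2.17, whose adjusted p was 0.757.

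The crypt and tumor differences were compared directly for the 4 members tested in both tables, among 13370 genes. The question was whether the difference between knockout and control was alike in crypts and tumors. limma called 0 genes on this contrast, beside 1133 genes (8.47%) at an unadjusted p under 0.05, and 0 of 4 members reached the latter. With single libraries left out at most 1 of 4 did, namely Reg3g, Reg1 or Reg4, beside 751 to 1723 genes. voom was not run on it. For Reg3g, with a crypt difference of -0.52 and a tumor difference of 0.71, the difference between them was 1.23 on the log2 scale (SE 0.60, 95% interval -0.10 to 2.56, limma adjusted p = 0.614). Reg1 gave -1.58 (95% interval -3.66 to 0.49, limma adjusted p = 0.681), Reg3b 1.11 (adjusted p = 0.822) and Reg4 0.85 (adjusted p = 0.696). The 3 members with lower crypt means had higher tumor means and Reg1 the opposite, but none of these differences between tissues passed the test.

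Some inducers of Reg3 lectins passed the level filter in tumors. Of 7 cytokines and inducers 4 were tested, 3 higher and 1 lower by mean (1 and 3 without both libraries numbered 3), with 0 called by limma (lowest adjusted p 0.607, 0 at an unadjusted p under 0.05). Il11, a STAT3-activating cytokine, was at 16, 13 and 14.7 FPKM in controls and 27.6, 8.37 and 57.5 FPKM in knockouts, so the knockout libraries lay on both sides of the controls. Il22 was at 0 in 5 of 6 tumor libraries. Of 8 receptors tested, 5 had higher means (8 without both libraries numbered 3), and 2 had knockout libraries all above controls, beside 11.4% of tested genes: Il17rc, at 17.3, 17.1 and 17.5 FPKM beside 21.3, 20.4 and 20.9 FPKM, and Il10rb, at 8.3, 8.45 and 8.24 FPKM beside 10.4, 11.8 and 10 FPKM. Il17rc belongs to the interleukin-17 receptor and Il10rb to the interleukin-22 receptor, and limma gave adjusted p-values of 0.272 and 0.275. Signal transducers had 4 higher and 3 lower means of 7, 1 of them without overlap (Traf3ip2, lower, beside 10.6% of tested genes), and Socs3 overlapped at 49.1, 36.1 and 45.4 FPKM beside 48.3, 32.5 and 42.5 FPKM.

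Of 14 inducible defence genes tested in tumors, 10 had higher and 4 lower knockout means (8 and 6 without both libraries numbered 3), 3 lay above and 2 below every control, beside 11.4% and 10.6% of tested genes, and limma called 0 (lowest adjusted p 0.269), with 5 at an unadjusted p under 0.05, beside 14.5%. Saa1, an acute-phase protein of the epithelium, was at 47, 37.5 and 20.6 FPKM in controls and 63.6, 81.7 and 71.5 FPKM in knockouts. Retnlb, an antibacterial product of goblet cells, was at 6.57, 5.66 and 2.69 FPKM in controls and 12.8, 11.6 and 8.57 FPKM in knockouts. Both separated the groups, with log2 differences of 1.11 and 1.13, which Reg3b and Reg3g did not. S100a9, a calprotectin subunit mainly of neutrophils, lay the other way at 112, 260 and 180 FPKM in controls and 110, 51.8 and 111 FPKM in knockouts (limma adjusted p = 0.335). Extl3 overlapped at 20.5, 21.1 and 26.2 FPKM beside 22.1, 21 and 21.5 FPKM.

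Other cell type lists in tumors also gave 0 calls by limma and by voom. Under the 3 other scalings that changed any value, the number of genes with higher means moved by at most 1 in each tumor list, except for the 4 inducers, where 3 became as few as 1. Paneth cell genes had higher knockout means in 7 of 8 (6 of 8 in each of the 3 other scalings), with a median log2 difference of 0.49 (0.92 without both libraries numbered 3) and a sum of 1751, 1793 and 1870 FPKM in controls and 2582, 4127 and 1388 FPKM in knockouts, led by Lyz1. Knockout library 2, the highest for Reg4 and Reg3g, held the most of them, with Defa24 at 1062 FPKM. The only gene of that list at an unadjusted p under 0.05 lay the other way: Mptx2, at 99.9, 51.2 and 18.4 FPKM in controls and 9.31, 5.26 and 27.5 FPKM in knockouts (log2 difference -1.98, limma unadjusted p 0.0354, adjusted p = 0.327). Immune cell genes were split, 3 higher and 3 lower of 6 (5 and 1 without both libraries numbered 3), and their sum was 661, 332 and 570 FPKM in controls and 575, 665 and 388 FPKM in knockouts, led by Lyz2. Stroma genes were higher in 3 of 4, pan-epithelial genes in 4 of 4 (3 of 4 under quantile normalization) and colon genes in 4 of 5. Knockout libraries lay above every control for all 4 pan-epithelial genes, for Col1a1 and Pecam1 of the stroma and for 1 colon gene (Car1), as they did for the goblet genes, beside 11.4% of tested genes. At an unadjusted p under 0.05 were 1 pan-epithelial, 3 stroma and 1 colon gene, beside 14.5% of tested genes. Enteroendocrine genes were higher in 5 of 7 (7 of 7 without both libraries numbered 3), tuft cell genes in 1 of 1, enterocyte genes in 2 of 4, proximal genes in 2 of 3, distal genes in 1 of 3, acinar genes in 1 of 1 and stomach genes in 0 of 2 (1 of 2 without both libraries numbered 3). Of these, 1 enterocyte, 2 proximal and 1 stomach gene had an unadjusted p under 0.05, beside 14.5%, and 2 did not overlap, Slc40a1 of the proximal list with knockouts higher (beside 11.4%) and Atp4a of the stomach list with knockouts lower (beside 10.6%).

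The Reg genes varied more between libraries of the same group than most genes. The within-group SD of log2 levels in crypts was 0.30 for Reg3g, 0.38 for Reg3b, 0.40 for Reg3d, 0.55 for Reg1, 0.60 for Reg4 and 0.64 for Reg3a, beside a median of 0.22 over 14176 genes. These placed Reg3g at the 68.6th and Reg3a at the 92.6th percentile of tested genes, the ends of the family's range. In tumors the SD was 0.46 for Reg4, 0.80 for Reg3g, 1.24 for Reg1 and 1.63 for Reg3b, beside a median of 0.19 over 16743 genes. Reg3b thus stood at the 99.5th percentile there and Reg4 at the 87.4th. Reg1 in tumors rests on few fragments, whereas Reg3b had at least 120 in each tumor library.

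**Figure D5:**
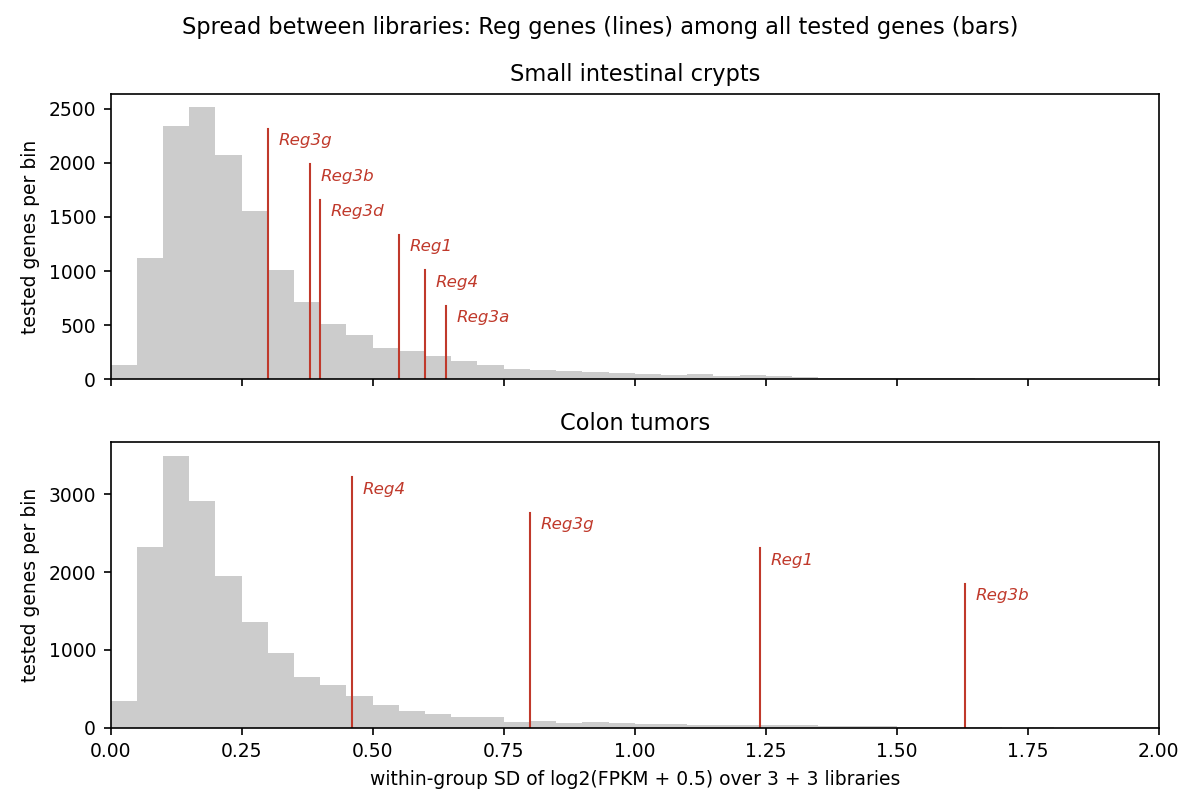
Histogram of the within-group SD of log2 levels over all tested genes, with the tested Reg genes as vertical lines, for crypts and for tumors; the axis ends at an SD of 2. Crypt members lie between 0.30 and 0.64, tumor members between 0.46 and 1.63, all above the medians of 0.22 and 0.19.

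Members differed in whether they varied together. Across the 6 crypt libraries, which the points share, Reg3b and Reg3g had a Pearson r of 0.89, and of 0.85 after group means were removed. In the 6 tumor libraries the same pair had r = 0.87, and 0.88 after removal of group means. Reg1 and Reg3b had r = -0.18 in crypts and 0.58 after removal of group means. Wild-type libraries ranked alike for both genes, and knockout libraries did not. In tumors that pair reached r = 0.87. Reg4 was near 0 with Reg3b in tumors, at r = -0.03. With 6 points each, these values describe the libraries and carry no test.

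Genes most like each member were ranked by Pearson r over the 6 libraries. Among 7232 crypt genes, Reg1 was closest to Slc26a3 (r = 0.994), a chloride and bicarbonate exchanger of mature enterocytes, at 13.1, 16.9 and 14.6 FPKM in wild type and 21, 17.7 and 23.3 FPKM in knockouts. Slc25a15, the mitochondrial ornithine carrier, and Rassf3 followed at r = 0.994 and 0.992. Reg3g was closest to Ap3d1 (r = 0.997), an adaptor of vesicle transport, then Usf3 and the adhesion gene Ceacam1, which was at 154, 191 and 142 FPKM in wild type and 107, 133 and 139 FPKM in knockouts. Reg3b was closest to Tmco3 (r = 0.994), Slc22a23 and Ttc39a, and Reg4 to Icmt (r = 0.989), Nfat5 and Defa-ps6, a defensin pseudogene. Reg3a went with Cnppd1, Hdac11 and Nagk (r of 0.974 to 0.977) and Reg3d with Lrrc66, Tcrg-V7 and Ciz1 (r of 0.965 to 0.988).

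Among 9041 tumor genes, Reg3b was closest to Cldn2 (r = 0.979), the pore-forming claudin of crypt epithelium, at 93.4, 73.5 and 55.1 FPKM in controls and 106, 91 and 61.2 FPKM in knockouts. Gm16015 and Pgm3 came next. Reg3g was closest to Gm5529 (r = 0.988), the immunoglobulin segment Igkv6-23 and Clint1, and Reg4 to Sytl2 (r = 0.991), a gene of secretory vesicle docking, Jak1 and Tdrd7. Reg1 went with Dnmt1 (r = 0.985), Lzts3 and Aldh18a1. These ranks rest on 6 libraries, so no shared function or control was read from them.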

How the data were processed

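Bulk RNA of 12 libraries was measured, 3 per group. The deposited tables give FPKM per gene, made by the authors from reads aligned to mm10 with HISAT2; the submitters' notes name cutadapt, Cufflinks 2.2.1 and DESeq2 as well. Multiplied by gene length, each library's FPKM fell on integer steps, which recovered 14457896 to 16156712 fragments on genes. No pair of replicates held identical values. Genes with a mean of at least 0.5 FPKM were tested on log2(FPKM + 0.5) with limma 3.58.1 (R 4.3.3, eBayes with a variance trend), two-sided, Benjamini-Hochberg over all tested genes, threshold 0.05; the procedure was tested on simulated data. Exact permutation tests, ratios, motifs and figures used Python 3.11.15, numpy 2.4.6, pandas 2.3.3 and matplotlib 3.10.9. The members and the 17 gene lists (122 genes) were chosen with earlier results of these data known. Named genes were the members, Ctnnb1, Extl3, neighbours within 500 kb, the 3 genes most like each member, and per list those with the smallest p; other list genes, Xist and Ddx3y were named after their values were seen. Alternatives varied pseudocount, filter, scaling, model, libraries and gene length.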

Additional observations from a re-analysis of the deposited data

How the results depend on the processing

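No Reg gene passed the threshold under any of the alternatives: of 244 values for single members, 237 kept their direction and 7 turned, and the lowest adjusted p was 0.316. Median-of-ratios scaling is not among these, since its factors were 1 to 4 decimals in all 12 libraries: the deposited values carry it already, and it repeats the main fit. No other scaling, pseudocount, filter or model setting turned a direction, though quantile normalization took Reg3b in crypts from -0.40 to -0.07 and Reg4 in tumors from 0.59 to 0.37. Leaving out single libraries gave log2 differences in crypts of 1.09 to 1.68 for Reg1, -0.63 to -0.34 for Reg3g, -0.65 to -0.19 for Reg3b, -0.70 to 0.00 for Reg4, -0.59 to -0.17 for Reg3d and -0.10 to 0.63 for Reg3a; without wild-type libraries 1 and 2, an alternative chosen after seeing the data, Reg3a was at -0.61 and Reg3d at -0.73. In tumors the ranges were -0.97 to 0.27 for Reg1, -0.28 to 1.54 for Reg3b, 0.42 to 1.26 for Reg3g and 0.33 to 0.84 for Reg4. The count of all genes past the threshold in crypts ran from 0 to 3 when single libraries were left out; the 3 were the stomach genes Pgc, Gkn2 and Gkn1, called without wild-type library 3, which leaves the 2 wild-type libraries that held them. In tumors it was 1 (Mir3473e) with no variance trend, and for the difference between tissues 1 (Trbj1-6) with a pseudocount of 0.1; these genes were chosen after their values were seen and the cause was not tested. With replicate number as a block the counts were 0 in crypts, 0 in tumors and 1 (Trbj1-3) for the difference. Members at a limma unadjusted p under 0.05 then went from 0 to 2 of 4 in tumors, beside 1882 of 16743 genes. These were Reg3b at 0.0147 and Reg3g at 0.0414. For the difference the members went from 0 to 3 of 4, beside 997 of 13370 genes. There Reg3b was at 0.00789, Reg3g at 0.0086 and Reg1 at 0.0184. The adjusted p of every member was 0.427 or more under the block. Deviations of libraries with the same number correlated at -0.12 to 0.05 over genes, so the numbers showed no pairing over all genes. Such values cannot exclude a match by number for some genes. In tumors both libraries numbered 3 were those with Xist, and Reg3b fell from library 1 to library 3 in each group. Coding transcript lengths and voom on recovered fragments were also chosen after seeing the data; with the former, tumor libraries with Reg3b above Reg3g went from 3 to 0. Counts of 3 fragments or fewer limit Reg2, and Reg1, Reg3a and Reg3d in tumors.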
